A study of Mus musculus with 18 samples.

Results

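Embryonic stem (ES) cells of the mouse strain background 129SV were compared before and after differentiation, as 3 arrays of differentiated and 3 arrays of undifferentiated cells, chosen by their titles from the 18 arrays and 6 groups of the series. The remaining groups were adult 129SV stem cells, undifferentiated and differentiated, and undifferentiated ES and adult cells of the background Stra8-EGFP/Rosa26, named Stra8 here as in the titles. The series title calls the adult cells multipotent adult germline stem cells. No allele or agent is given for the 129SV groups beyond the background. The genes described are all 19938 with a probe set that carries their symbol alone, out of 35556 probe sets. The labels call the arrays biological replicates, and they give 300 ng of RNA for each. They do not state how or for how long the cells were differentiated, whether they grew on a feeder layer of fibroblasts, or how many lines stand behind the replicates. Values below are levels (log2 RMA signal of an array) or changes (mean of the differentiated minus mean of the undifferentiated arrays, log2 scale, ± standard error, SE). The threshold for a call was an adjusted p of 0.05 from limma, adjusted by Benjamini-Hochberg over all 19938 genes, and "rose" and "fell" are used of called genes.

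ES cells stand for the epiblast of the early embryo. The transcription factors Oct4 (gene Pou5f1), Sox2 and Nanog hold them in a pluripotent state, which leukaemia inhibitory factor (LIF) supports in culture and FGF signalling erodes. When that state is lost, cells can enter the germ layers, ectoderm, mesoderm and endoderm, or take up programmes of extraembryonic tissue: the primitive endoderm, which gives the visceral layer of the yolk sac and the parietal layer that secretes a thick basement membrane, and the trophectoderm, which gives the placenta.

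The response was broad. Of the 19938 genes, 11005 (55.2%) were called, 5553 as higher (27.9%) and 5452 as lower (27.3%). The counts of list members called, given below, are to be read beside these shares. Restricted to changes of at least 2-fold, 961 genes rose (4.82%) and 1355 fell (6.8%). At larger sizes the balance moved toward decreases. At least 8-fold changes were 50 increases and 126 decreases, and at least 32-fold changes were 3 and 14. The median change over all genes was 0.05, and the arrays were not recentred. With each array centred on its median, the split of called genes became 4045 higher and 6847 lower and the median change -0.08. Replicate 3 of the differentiated cells stood apart from the others: its mean correlation with its own group over all genes was 0.9915, against 0.9946 and 0.9938 for replicates 1 and 2 and 0.9974 to 0.9975 for the undifferentiated arrays. Without it, 5176 genes were called higher and 5758 lower, of which 998 and 1332 changed at least 2-fold.

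**Figure D1:**
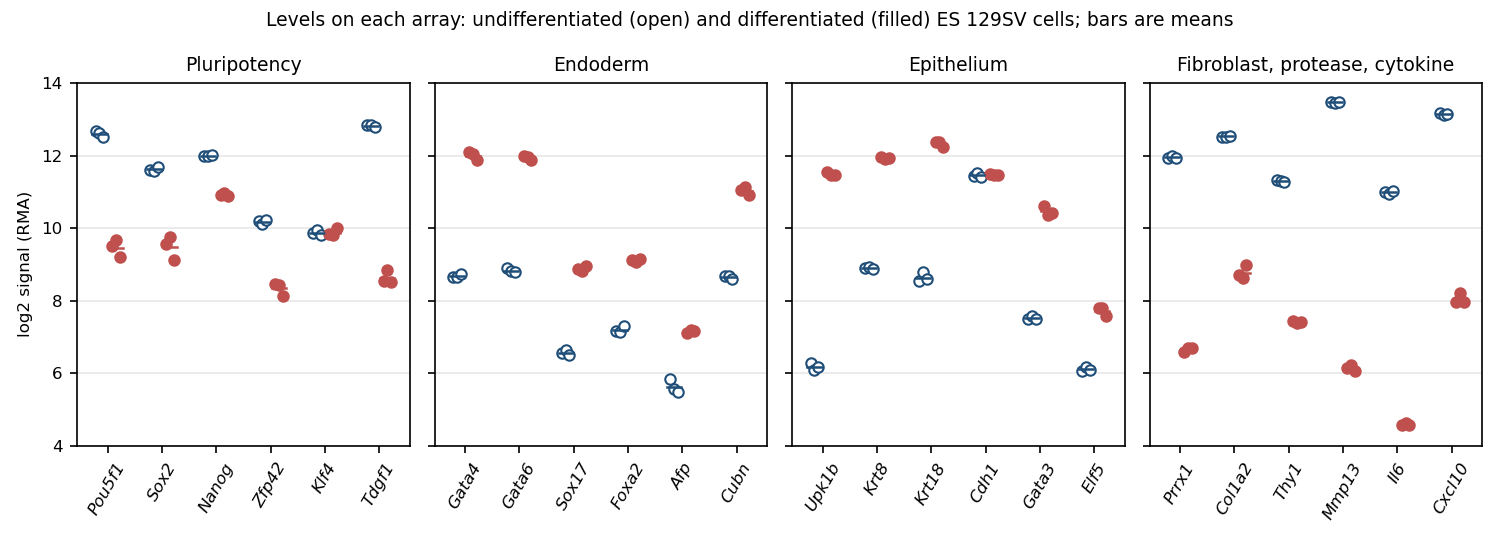
Log2 RMA signal (vertical axis) of 24 genes on the 3 undifferentiated (open blue) and 3 differentiated (filled red) ES 129SV arrays, with group means as bars. Pou5f1 and the fibroblast and protease genes lie lower in differentiated cells, the endoderm genes lie higher, and the points of Klf4 and of Cdh1 overlap between the groups.

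Genes of the pluripotent state fell almost throughout. Of 21 measured genes of a core pluripotency list, 20 fell (beside 27.3% of all genes) and none rose. At least 2-fold decreases were 16, and the median change was -1.84 beside 0.05 over all genes. Pou5f1, the central transcription factor of this state, had log2 levels of 12.68, 12.62 and 12.51 in undifferentiated and 9.51, 9.68 and 9.19 in differentiated cells. Its change was -3.14 ± 0.10 (adjusted p = 5.06e-14), or 8.82-fold. Sox2, its DNA-binding partner, had levels of 11.60, 11.58 and 11.68 in undifferentiated and 9.55, 9.76 and 9.12 in differentiated cells, a change of -2.14 ± 0.11. These values check the labels, and neither gene was at the floor of the array after differentiation. Nanog, the other core factor, moved least, with levels of 11.98, 11.98 and 12.01 in undifferentiated and 10.91, 10.97 and 10.88 in differentiated cells and a change of -1.07 ± 0.05. For all 3 factors the groups were far apart relative to the spread of the replicates. The largest decrease of the list was Tdgf1, the Nodal co-receptor Cripto, with levels of 12.84, 12.83 and 12.80 in undifferentiated and 8.55, 8.85 and 8.51 in differentiated cells. It fell by 4.19 (SE 0.07), which is 18.2-fold. Dnmt3l, a cofactor of the enzymes that set up DNA methylation, fell by 3.78, and Utf1, a chromatin protein of ES cells, by 3.59. The exception was Dppa3, which protects methylation in the early embryo, with a change of 0.05 ± 0.11 (adjusted p = 0.706).

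Naive-state factors, which mark the ground state of ES cells that the preimplantation epiblast resembles, fell in 11 of 13 cases and rose in none, with a median of -1.08. The orphan receptor Nr0b1 fell furthest, from 12.13, 12.22 and 12.13 to 8.17, 8.08 and 8.13, a change of -4.03 ± 0.05. The nuclear receptor Esrrb changed by -2.27 ± 0.08, Klf2 by -2.04 ± 0.07 and Zfp42 (Rex1), a zinc finger protein used as a marker of ES cells, by -1.84 ± 0.15. Klf4, a relative of Klf2, had levels of 9.86, 9.94 and 9.82 in undifferentiated and 9.83, 9.80 and 9.99 in differentiated cells, which overlap, and a change of 0.00 ± 0.06 (adjusted p = 0.956). The other member that was not called was Klf5, at 0.06 ± 0.05 (adjusted p = 0.394). Both Klf genes are also expressed in differentiated epithelia.

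Most genes of the primed epiblast, the stage that follows implantation, fell as well. Of 12 genes of that stage 9 fell and 1 rose, with a median of -0.92. Otx2, a transcription factor of the primed epiblast and forebrain, had levels of 10.10, 10.07 and 10.09 in undifferentiated and 7.02, 6.69 and 6.94 in differentiated cells and a change of -3.20 ± 0.07. Lef1, a partner of β-catenin, fell by 3.01, and the methyltransferase Dnmt3b, which marks cells leaving the naive state, by 2.93. Fgf5, the classical marker of the stage, was at 7.55, 7.58 and 7.55 in undifferentiated and 6.75, 6.81 and 7.16 in differentiated cells and fell by 0.66. Sall2, a zinc finger gene, rose by 0.46.

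Signals that act on ES cells moved by component rather than as whole pathways. In Nodal and activin signalling, a TGFβ branch that keeps epiblast cells pluripotent and induces mesendoderm, 10 of 17 genes fell and 6 rose. Ligands fell, Nodal from 9.89, 9.97 and 9.77 to 7.47, 7.66 and 7.66, a change of -2.28 ± 0.07, Gdf3 by 2.16 and the activin subunit Inhba by 5.41 from 11.94, 11.98 and 11.99. So did the co-receptor Tdgf1, the inhibitors Lefty1 (-2.03) and Lefty2 and the inhibitory Smad7. The transducers rose, Smad3 by 1.55, Smad2 by 0.93 and the shared partner Smad4 by 0.49. In LIF signalling, which supports renewal through Stat3, 6 of 12 genes fell and 3 rose (beside 27.3% and 27.9% of all genes). The cytokines Il11 and Lif fell by 3.06 and 1.63, and the oncostatin receptor Osmr by 2.14. The LIF receptor Lifr rose by 1.46 and its signalling partner Il6st (gp130) by 0.91. Socs3, the feedback inhibitor that the pathway induces, rose by 0.40.

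In FGF signalling, most ligands and target genes and the receptor Fgfr1 fell. Of 17 genes of the list 11 fell and 5 rose, with a median of -1.02. Fgf4, the factor that ES cells secrete and that pushes them toward differentiation, had levels of 11.13, 11.02 and 11.02 in undifferentiated and 8.64, 8.38 and 8.76 in differentiated cells and a change of -2.46 ± 0.08. Fgf7, a factor that mesenchyme makes for epithelium, had levels of 10.89, 10.88 and 10.81 in undifferentiated and 5.84, 6.15 and 6.23 in differentiated cells and fell by 4.79, or 27.6-fold. The receptors divided: Fgfr1 fell by 2.65, whereas Fgfr2, the epithelial receptor for Fgf7, rose by 1.5, Fgfr3 by 1.31 and Fgfr4 by 1.25. Spry4, which FGF signalling induces as its own brake, fell by 2.82. The other increases were the ligand Fgf10 (0.37) and the inhibitor Spry1 (0.26).

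Among 23 genes of Wnt signalling, which controls stem cell renewal and axis formation, 11 rose and 5 fell (beside 27.9% and 27.3% of all genes), with a median of 0.23. The ligand Wnt5a, made by mesenchyme, fell by 2.75, whereas the epithelial ligands Wnt7b and Wnt6 rose by 1.72 and 1.26. Tcf7l2, a DNA-binding effector, rose by 2.40, and the target gene Axin2, which reads out pathway activity, changed by 0.10 ± 0.06 (adjusted p = 0.182). BMP signalling, which instructs ectoderm, mesoderm and extraembryonic fates, had 13 increases and 3 decreases in 18 genes, with a median of 0.67. The ligand Bmp2 had levels of 6.4, 6.61 and 6.4 in undifferentiated and 8.97, 8.89 and 9.10 in differentiated cells, a change of 2.52 ± 0.12, and Bmp7 and Bmp6 rose by 1.51 and 1.28. Bmp4 moved the other way and fell by 1.37. The secreted BMP inhibitor Grem1, a product of fibroblasts, had levels of 12.05, 12.03 and 12.01 in undifferentiated and 6.76, 7.10 and 7.43 in differentiated cells, a decrease of 30.6-fold. The target Msx2 rose by 1.69.

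Most called genes that carry, break down or respond to retinoids rose, and Cyp26a1 was among the 12 largest increases. Retinoic acid is made from vitamin A by aldehyde dehydrogenases, acts through nuclear receptors that bind paired repeats in DNA, and is broken down by Cyp26 enzymes. Of 23 genes of the list 13 rose and 4 fell, with a median of 0.76 and 11 increases of at least 2-fold. Cyp26a1, which degrades retinoic acid, had levels of 6.39, 6.53 and 6.41 in undifferentiated and 11.34, 11.26 and 11.13 in differentiated cells, a change of 4.80 ± 0.11 (adjusted p = 1.14e-15), or 27.9-fold. Rbp4, the carrier of retinol in blood, changed by 3.67 ± 0.10, and Stra6, its membrane receptor, by 2.33 ± 0.08. Rarb, a receptor that is itself a target, had levels of 6.09, 6.4 and 6.36 in undifferentiated and 8.28, 8.18 and 8.03 in differentiated cells, a change of 1.88 ± 0.10. Tgm2, a transglutaminase and known target, rose by 2.54. In all 5 of these genes every differentiated array lay above every undifferentiated one, a separation seen in either direction in 11561 of the 19938 genes. Rarg, the receptor of early ES cells, fell by 1.46, the binding protein Crabp1 by 1.53 and the dehydrogenase Dhrs9 by 2.39. Stra8, a meiosis gene named for its response to retinoic acid, rose by 0.49. Whether retinoic acid was added to the cultures is not stated in the labels and was not tested.

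Promoters were searched for a fixed spelling of the retinoic acid response element, GTTCANNNNNAGTTCA (a direct repeat with a gap of any 5 bases, both strands). The windows were the 250 bases before the start sites that RefSeq gives for mouse assembly GRCm38.p6. Of 19116 windows of 15563 tested genes, 4 hold this spelling (0.0209%), and they belong to Cyp26a1, Rarb, Blvrb and Tnfsf13b. Other spellings of the element were not searched, so the share is not that of the element in general. The spelling was fixed by choice and not derived from these data, so no conclusion about the retinoid genes is drawn from its rarity. The matching stretches of both retinoid genes are shown because they carry the element next to the start site; each runs 5′ to 3′ on the strand of its gene up to the base before the start, with the element in capitals. In Cyp26a1 (chr19:37697716-37697807, plus strand) the element begins 32 bases before the start and reads on the opposite strand, and in Rarb (chr14:16575477-16575588, minus strand) it begins 52 bases before it.
Cyp26a1: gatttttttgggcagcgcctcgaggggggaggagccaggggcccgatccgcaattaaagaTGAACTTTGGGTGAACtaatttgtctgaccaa
Rarb: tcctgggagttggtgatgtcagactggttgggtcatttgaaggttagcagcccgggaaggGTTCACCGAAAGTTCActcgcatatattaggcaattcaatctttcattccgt
A match describes these letters only and does not show binding.

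Gata4, Gata6, Sox17 and Foxa2, regulators of endoderm, rose. Primitive and definitive endoderm share the Gata and Sox17 factors, and Foxa2 opens chromatin at their targets. Of 20 endoderm transcription factors 12 rose and 3 fell, with a median of 0.40. Gata4 had levels of 8.66, 8.65 and 8.73 in undifferentiated and 12.09, 12.03 and 11.88 in differentiated cells, a change of 3.32 ± 0.10 (adjusted p = 4.47e-14), or 9.96-fold. Gata6, the factor that is enough to turn ES cells into primitive endoderm, had levels of 8.90, 8.81 and 8.78 in undifferentiated and 11.99, 11.95 and 11.89 in differentiated cells and a change of 3.12 ± 0.11. Sox17 and Foxa2 changed by 2.32 ± 0.10 and 1.92 ± 0.09, and Hnf4a, which directs the visceral and liver epithelium, by 0.50 ± 0.10. The decreases were Nr5a2, Eomes and Otx2, of which Nr5a2 fell by 1.62 and Eomes, a factor of early definitive endoderm and of trophoblast, by 1.31. The arrays of both groups did not overlap in these genes, as in 11561 of all 19938.

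Visceral yolk sac genes, which code for the uptake and serum proteins of this absorptive layer, rose in 21 of 28 cases and fell in none, with a median of 0.96; 13 rose at least 2-fold. Cubn, a scavenger receptor of the absorptive surface, had levels of 8.68, 8.68 and 8.59 in undifferentiated and 11.04, 11.13 and 10.92 in differentiated cells. Its change was 2.38 ± 0.07, or 5.22-fold. The secreted proteins rose from low levels: the fibrinogen chain Fgb by 3.93 to 9.86, 10.07 and 9.63, Ttr, a carrier of thyroid hormone, by 1.71 to 7.31, 7.15 and 7.14, and Afp, the fetal counterpart of albumin, by 1.52 to 7.10, 7.18 and 7.16. The list holds Cyp26a1 and Rbp4 as well, which count in the retinoid list too. Leaving out replicate 3 gave 21 increases and 1 decrease.

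Parietal endoderm genes, for the cells that line the outer wall of the yolk sac and lay down Reichert's membrane, rose in 13 of 17 cases and fell in 3, with a median of 1.11. Lama1, the laminin chain of embryonic basement membranes, had levels of 9.30, 9.30 and 9.43 in undifferentiated and 13.04, 13.07 and 12.97 in differentiated cells, a change of 3.68 ± 0.06 (adjusted p = 3.63e-17), or 12.8-fold. The type IV collagen chains Col4a1 and Col4a2 changed almost equally, by 2.85 ± 0.07 and 2.75 ± 0.07; their genes lie head to head on chromosome 8, with RefSeq start sites 21 bases apart on opposite strands. Srgn, a proteoglycan core protein, rose by 2.71, and Sparc, a matrix protein that this layer secretes in quantity, from 12.58, 12.65 and 12.65 to 13.68, 13.71 and 13.64. The decreases were Thbd, Lgals1 and Vim. Thbd, the thrombomodulin that marks parietal endoderm but also other surfaces, fell by 2.44, against the direction of the list; Lgals1 and Vim, abundant in mesenchyme as well, fell by 0.84 and 0.75.

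Basement membrane chains as a whole, 20 genes that share several members with that list, had 14 increases and 3 decreases and a median of 1.14. Lamc1, the γ chain common to most laminins, rose from 11.66, 11.66 and 11.62 to 13.67, 13.64 and 13.70. The laminin α chains separated: Lama1 rose as above, while Lama4, a chain of vessels and mesenchyme, fell from 10.41, 10.51 and 10.48 to 7.65, 7.52 and 7.38, a change of -2.95 ± 0.07, and Lama2, the muscle chain, fell by 0.77. The matrix protein Tinagl1, found in the same membranes, rose by 3.52.

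Surface epithelium genes included the largest increase of all. Uroplakins are membrane proteins of the bladder lining, and keratins 7, 8 and 18 build the filaments of simple epithelia. Upk1b had levels of 6.27, 6.09 and 6.16 in undifferentiated and 11.54, 11.47 and 11.45 in differentiated cells, a change of 5.32 ± 0.10 (adjusted p = 9.10e-17), or 39.9-fold. Upk1a had levels of 7.51, 7.53 and 7.58 in undifferentiated and 11.28, 11.30 and 11.35 in differentiated cells, a change of 3.77 ± 0.08. Krt18 and Krt7 changed by 3.69 ± 0.07 and 3.65 ± 0.07, and Krt8 by 3.03 ± 0.07. For these 5 genes every differentiated array exceeded every undifferentiated one by more than 2 log2 units. Of 29 genes of the list 18 rose and 6 fell (median 0.52). Among the decreases were epithelial regulators and adhesion genes that ES cells also express, Grhl2 by 1.10, Grhl3 by 0.98, the adhesion molecule Epcam by 0.64 and the splicing factor Esrp1 by 0.59. E-cadherin (Cdh1), which joins ES cells and epithelia alike, stood at 11.44, 11.51 and 11.40 and 11.50, 11.45 and 11.46, a change of 0.02 ± 0.05 (adjusted p = 0.761).

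Several other of the largest increases were genes known from epithelia and mesothelium. Scel, a precursor of the cornified envelope, had levels of 5.27, 5.08 and 5.28 in undifferentiated and 10.40, 10.36 and 9.32 in differentiated cells, a change of 4.82 ± 0.19, and replicate 3 lay about 1 log2 unit under the others. Msln, mesothelin, rose from 7.43, 7.67 and 7.61 to 11.97, 11.92 and 11.88. Aqp8, a water channel, had levels of 6.59, 6.62 and 6.75 in undifferentiated and 11.84, 11.61 and 11.65 in differentiated cells, a change of 5.05 ± 0.11; among 12 aquaporins 4 rose, including Aqp1 by 1.53, and none fell. The stomach mucosa protein Gkn2 changed by 4.96 ± 0.09 and its family member Gkn1 by 2.01 ± 0.11. Ugt2b34, a glucuronosyltransferase of a family with near-identical members that probes may share, changed by 5.19 ± 0.15, the tetraspanin Tspan8 by 4.81 ± 0.08, the mucin-like gene Mucl3 by 4.45 ± 0.13 and the chaperone Clu by 4.19 ± 0.07 to reach 13.19, 13.13 and 12.92. Markers of later gut and liver epithelium were less uniform, with 13 increases and 5 decreases among 26 genes and a median of 0.29. The shares over all genes were 27.9% and 27.3%. The intestinal factor Cdx2 had levels of 6.30, 6.26 and 6.32 in undifferentiated and 6.78, 6.41 and 6.90 in differentiated cells and rose by 0.40, and the intestinal cadherin Cdh17 fell by 1.72.

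Trophectoderm genes rose in 13 of 18 cases and fell in 3, with a median of 0.65. Gata3, a factor of trophectoderm and of several epithelia, had levels of 7.50, 7.58 and 7.49 in undifferentiated and 10.61, 10.37 and 10.41 in differentiated cells, a change of 2.94 ± 0.11. Elf5, which maintains trophoblast stem cells, went from 6.07, 6.18 and 6.08 to 7.81, 7.80 and 7.57, a change of 1.61 ± 0.11, and Tfap2a and the homeobox gene Rhox9 rose by 1.38 and 1.27. The decreases were Ascl2, Eomes and Esrrb, which also belong to trophoblast stem cells; Ascl2 fell by 1.81.

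Gastrulation and mesoderm genes split into 9 increases and 5 decreases of 24, shares not far from the 27.9% and 27.3% of all genes. The median was 0.14, and without replicate 3 it was 0.08, with 8 increases and 6 decreases. Mixl1, a factor of the primitive streak, had levels of 6.83, 6.83 and 6.65 in undifferentiated and 6.63, 6.59 and 7.22 in differentiated cells and a change of 0.04 ± 0.14 (adjusted p = 0.817). Pdgfra, a receptor of mesoderm and also of primitive endoderm, rose from 10.53, 10.63 and 10.49 to 11.69, 11.75 and 11.74. Cardiac and smooth muscle genes rose in 11 of 24 cases and fell in 4, beside 27.9% and 27.3% of all genes, with a median of 0.13. The increases included 6 of at least 2-fold, and the 4 decreases, not named here, were all smaller than 2-fold. Troponin T (Tnnt2) had levels of 6.71, 6.94 and 6.93 in undifferentiated and 9.41, 9.37 and 9.37 in differentiated cells, a change of 2.52 ± 0.08, the calcium release channel Ryr2 rose by 2.10 and the myosin light chains Myl3 and Myl7 by 1.83 and 1.79. The contractile heavy chain Myh6 changed by 0.03 ± 0.10 (adjusted p = 0.818), and the cardiac factor Nkx2-5 by 0.28 ± 0.09 (adjusted p = 0.0158) with arrays as deposited. It was not called once they were centred, nor without undifferentiated replicate 1 (0.24) or differentiated replicate 3 (0.17).

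Endothelial genes rose in 6 of 17 cases and fell in 3, again near the 27.9% and 27.3% of all genes. The angiopoietin receptor Tek had levels of 7.38, 7.43 and 7.37 in undifferentiated and 9.99, 9.97 and 9.89 in differentiated cells, a change of 2.56 ± 0.08, and the vascular cadherin Cdh5 changed by 1.90 ± 0.12. Kdr, the main receptor for vascular growth factor, was at 7.15, 7.18 and 7.12 in undifferentiated and 7.26, 7.33 and 7.31 in differentiated cells, with a change of 0.15 ± 0.08 (adjusted p = 0.124), and Pecam1, which ES cells carry too, fell by 1.24. In the blood and macrophage list 8 of 18 fell and 2 rose, beside 27.3% and 27.9% of all genes. Laptm5, a lysosomal protein of leukocytes, fell from 11.86, 11.84 and 11.86 to 9.15, 8.78 and 9.06 and the macrophage lysozyme Lyz2 by 2.36, while Csf1r, the macrophage growth factor receptor that trophoblast also makes, rose by 1.63. Embryonic globin Hbb-bh1 had levels of 4.91, 4.75 and 5.13 in undifferentiated and 5.46, 4.96 and 5.62 in differentiated cells, a change of 0.42 ± 0.19 (adjusted p = 0.0774). Neural genes fell in 8 and rose in 5 of 22, near the shares over all genes. At least 2-fold changes were 6 decreases and 2 increases, beside 6.8% and 4.82% of all genes. Stmn2, a tubulin regulator of growing neurites, fell by 2.91, the neuronal tubulin Tubb3 by 1.12 and the growth cone protein Gap43 by 1.72. Pax6, an early neural and eye factor, rose from 6.07, 6.37 and 6.52 to 7.76, 7.68 and 7.62, Nes by 1.29, and Sox1, the first marker of the neural plate, had a change of 0.12 ± 0.09 (adjusted p = 0.249).

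**Figure D2:**
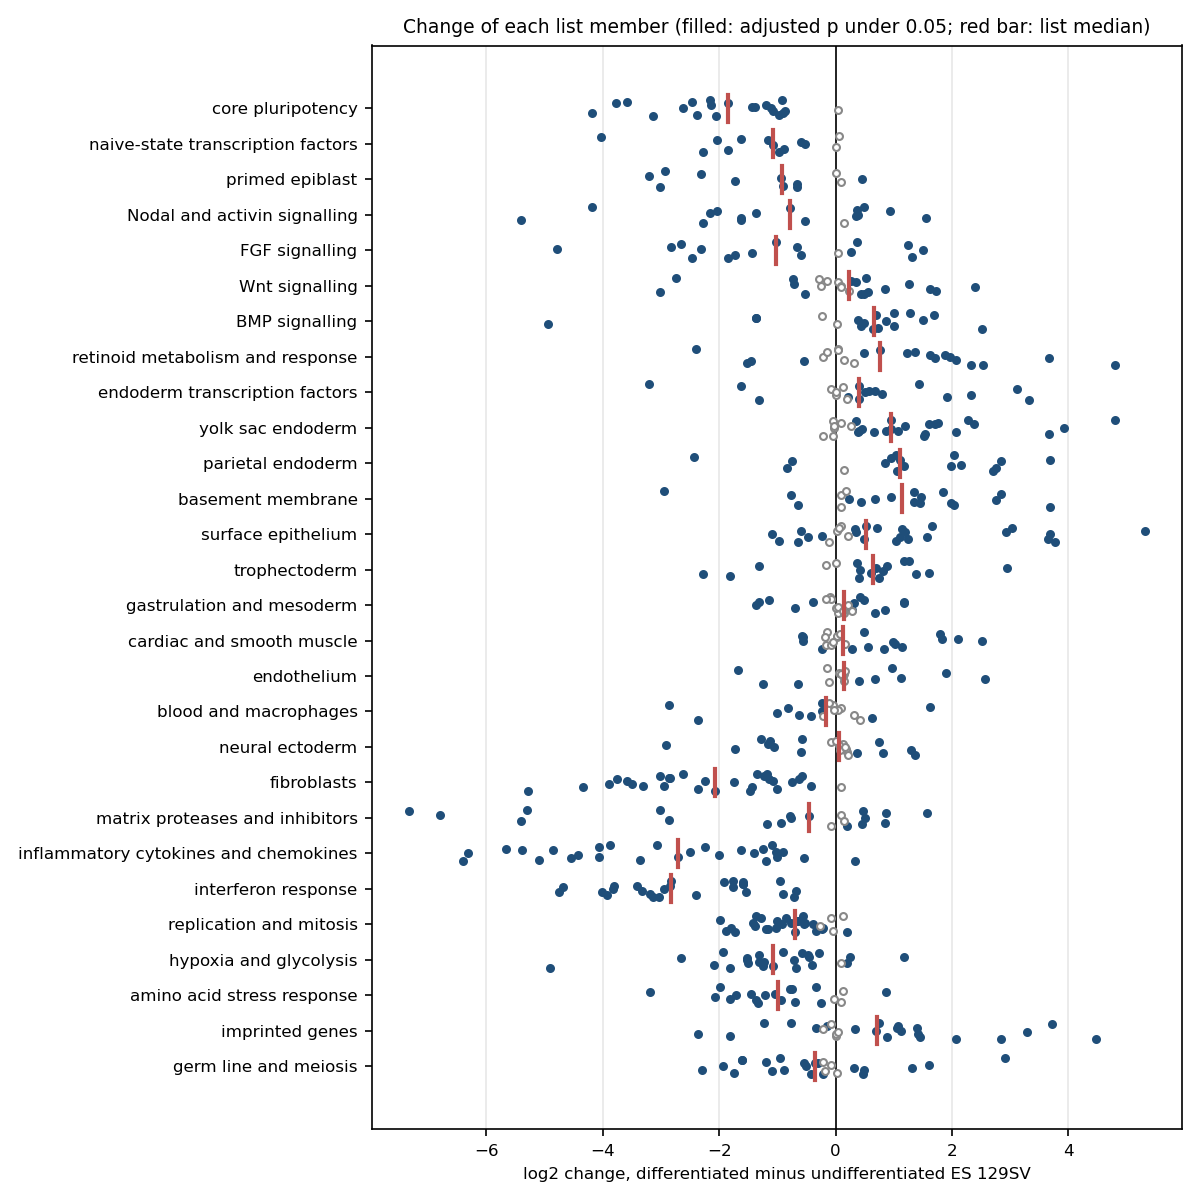
Log2 change, differentiated minus undifferentiated (horizontal axis), of each member of 28 gene lists (rows), filled where called and open where not, with the list median in red. Medians lie furthest left in the interferon (-2.83), inflammatory (-2.71) and fibroblast (-2.07) lists, and furthest right in the basement membrane (1.14) and parietal endoderm (1.11) lists.

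No gene of the core pluripotency list was among the 12 largest decreases, which were Mmp13, Mmp3, Il6, Serpinb2, Cxcl5, Saa3, Inhba, Mmp9, Il1a, Mmp10, Prrx1 and Thbs2. Of 29 fibroblast markers 28 fell, 24 of them at least 2-fold, and none rose; the median was -2.07. The homeobox factor Prrx1, which defines limb and connective tissue mesenchyme, had levels of 11.92, 11.98 and 11.94 in undifferentiated and 6.58, 6.69 and 6.68 in differentiated cells, a change of -5.29 ± 0.05 (adjusted p = 1.28e-19), or 39.2-fold. Collagen I chains are the main product of fibroblasts. Col1a2 went from 12.52, 12.52 and 12.55 to 8.71, 8.62 and 8.98, a change of -3.76 ± 0.07, and Col1a1 from 13.12, 13.15 and 13.21 to 11.07, 10.97 and 11.21, a change of -2.07 ± 0.06. The surface marker Thy1 fell by 3.89, the matrix proteins Postn and Thbs2 by 4.34 and 5.12. The log2 of the summed signal of the 29 markers was 16.52 to 16.55 on the undifferentiated arrays and 14.72 to 14.76 on the differentiated arrays, and Col1a1 was still among the brighter signals after differentiation. In whole cultures, fewer cells of a type and less RNA per cell cannot be told apart. The part of fibroblast cells in the decreases described here was not tested, and neither was any use of a feeder layer.

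Matrix metalloproteinases cut collagen and other matrix proteins, and are made on demand by fibroblasts and macrophages. Mmp13, a collagenase, had levels of 13.48, 13.46 and 13.48 in undifferentiated and 6.13, 6.22 and 6.06 in differentiated cells, a change of -7.33 ± 0.08 (adjusted p = 5.63e-19), or 161-fold, the largest of the 19938 genes. Mmp3, stromelysin, fell from 12.75, 12.85 and 12.86 to 5.98, 6.05 and 6.05, a change of -6.79 ± 0.05. Mmp9 and Mmp10 fell by 5.41 and 5.30. For all 4 genes the groups were separated by more than 4 log2 units. Not every protease went down. Of 21 genes of the list 11 fell and 7 rose, with a median of -0.45; Mmp23 rose by 1.57, the plasminogen activator Plat by 0.85, the inhibitor Reck by 0.87 and Mmp2, the constitutive gelatinase, by 0.19. The call of Mmp2 was lost with arrays centred (0.07), or without undifferentiated replicate 2 or 3 (0.17 and 0.16) or differentiated replicate 1 or 3 (0.17 and 0.13).

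The AP-1 motif TGAGTCA, read on both strands, occurs in 4.02% of all promoter windows and in 4.74% of the genes that have one. Of 15 protease genes with a window 5 hold it: Mmp3, Mmp10, Mmp12, Mmp13 and Plaur. The other lists searched held it in 5 of 20 inflammatory, 3 of 18 retinoid and 3 of 19 interferon genes. Over all windows of genes that fell or rose at least 2-fold the shares were 4.49% and 4.79%. The windows of Mmp13, Mmp3 and Mmp10 are printed as those of protease genes that hold the motif and fell at least 32-fold. Mmp9, which fell as far, is not among the holders. Il6, Il1a and Cxcl10 of the inflammatory list hold the motif and also fell at least 32-fold, but are not printed. The printed stretches lie on the plus strand of chromosome 9 (chr9:7272419-7272513 for Mmp13, chr9:7445716-7445821 for Mmp3, chr9:7502219-7502341 for Mmp10), with the motif in capitals.
Mmp13: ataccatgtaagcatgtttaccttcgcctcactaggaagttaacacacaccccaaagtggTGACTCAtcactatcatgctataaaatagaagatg
Mmp3: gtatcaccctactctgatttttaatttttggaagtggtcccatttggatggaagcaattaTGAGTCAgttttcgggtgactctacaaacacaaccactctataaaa
Mmp10: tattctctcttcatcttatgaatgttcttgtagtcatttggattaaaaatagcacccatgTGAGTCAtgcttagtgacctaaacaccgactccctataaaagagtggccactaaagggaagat
The motif starts 35, 46 and 63 bases before the start site, in that order, and in Mmp13 it reads on the opposite strand.

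Inflammatory cytokines and chemokines fell in 26 of 27 cases, 23 of them at least 2-fold, with a median of -2.71. Il6, the acute cytokine of infection and injury, had levels of 11, 10.94 and 11.02 in undifferentiated and 4.57, 4.62 and 4.57 in differentiated cells, a change of -6.40 ± 0.13 (adjusted p = 4.04e-16), or 84.6-fold. Cxcl5, a neutrophil attractant, had levels of 12.02, 12.11 and 12.07 in undifferentiated and 5.65, 5.98 and 5.62 in differentiated cells, a change of -6.32 ± 0.10, and the acute-phase protein Saa3 changed by -5.67 ± 0.09. Il1a and the monocyte attractant Ccl2 fell by 5.39 and 4.85, and Ptgs2, the inducible cyclooxygenase, from 13.47, 13.45 and 13.51 to 9.18, 9 and 8.96. The antiprotease Serpinb2, induced with them, fell by 6.4, with replicate 3 (5.08, 5.27 and 5.93 on the differentiated arrays) above the others. Markers of blood and macrophages, which make many of these proteins, summed to 12.87 to 12.89 (log2 of the summed signal of 18 genes) on the undifferentiated and 12.13 to 12.24 on the differentiated arrays, beside the fibroblast sums above; their part in these decreases was not tested. The single increase was Cxcl15, at 4.76, 4.62 and 4.71 in undifferentiated and 5.02, 4.70 and 5.38 in differentiated cells, where the arrays overlap. It was not called with arrays centred (0.21), nor with undifferentiated replicate 2 or 3 (0.30 and 0.34) or differentiated replicate 1 or 3 (0.34 and 0.16) left out.

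Interferon-stimulated genes form the antiviral programme that cells switch on through Irf and Stat factors. All 26 measured genes of the list fell, 22 at least 2-fold, with a median of -2.83. Cxcl10, an interferon-induced chemokine of the inflammatory list, had levels of 13.17, 13.13 and 13.14 in undifferentiated and 7.95, 8.22 and 7.95 in differentiated cells, a change of -5.10 ± 0.08 (adjusted p = 3.87e-17), or 34.4-fold. Ifit3, which binds viral RNA, had levels of 10.88, 10.97 and 10.83 in undifferentiated and 6.13, 6.27 and 6.02 in differentiated cells, a change of -4.75 ± 0.09. Irf7, the factor that amplifies interferon production, had levels of 12.53, 12.52 and 12.52 in undifferentiated and 7.97, 7.69 and 7.89 in differentiated cells, a change of -4.68 ± 0.09. Gbp3 and Cmpk2 fell by 4.01 and 3.93, and Ifit1 by 3.03. In each of these genes the lowest undifferentiated array exceeded the highest differentiated one by more than 2 log2 units. Antigen presentation genes, induced by the same signals, fell in 9 of 10 cases: H2-Q4, a class I molecule of a gene family with near-identical members, by 3.21, the proteasome subunit Psmb8 by 1.80 and B2m, the light chain of class I, from 12.85, 12.88 and 12.86 to 11.83, 11.98 and 11.50. Nlrc5, a regulator of class I genes, was called higher at 0.21 ± 0.08 from its brightest probe set, but its probe sets were called in opposite directions and their mean gave -0.81. The call was also lost without undifferentiated replicate 1 or 3 (0.21 and 0.17) or differentiated replicate 3 (0.13). The median level of the antigen presentation list was 9.32 to 9.5 on the undifferentiated and 8.26 to 8.47 on the differentiated ES 129SV arrays. In the other undifferentiated groups it was 8.21 (adult 129SV), 7.85 (ES Stra8) and 7.93 (adult Stra8).

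The interferon-stimulated response element, written GAAANNGAAA on either strand, is in 2.86% of all promoter windows, in 4.79% of windows of genes that fell at least 2-fold and in 1.43% of those that rose. Of 19 interferon genes with a window, 7 hold it (beside 3.4% of all genes with one): Bst2, Gbp3, Ifit1, Ifit3, Oas1a, Rsad2 and Stat2. Ifit3 and Ifit1 are shown because each holds 2 copies, and Cxcl10 because it had the largest decrease among the interferon-induced genes named here. The copy nearest the start, or in Cxcl10 the only one, begins 122, 85 and 213 bases before it, in that order. The stretches are chr19:34583347-34583476 (plus strand), chr19:34640744-34640873 (plus) and chr5:92349033-92349139 (minus), with the element in capitals.
Ifit3: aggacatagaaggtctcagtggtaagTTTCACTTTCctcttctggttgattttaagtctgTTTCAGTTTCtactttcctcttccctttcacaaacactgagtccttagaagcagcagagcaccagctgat
Ifit1: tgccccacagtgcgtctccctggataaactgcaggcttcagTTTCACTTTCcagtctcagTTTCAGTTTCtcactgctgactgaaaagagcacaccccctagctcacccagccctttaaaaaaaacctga
Cxcl10: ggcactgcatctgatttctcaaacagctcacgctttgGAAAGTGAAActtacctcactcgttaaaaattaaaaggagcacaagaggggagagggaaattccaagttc

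Neighbouring genes changed together in several places. Runs of at least 3 neighbours that changed 2-fold the same way numbered 8 for increases and 32 for decreases, among 19853 genes with a position. The longest was 6 interferon-inducible genes of chromosome 1, Ifi209, Ifi208, Ifi207, Ifi203, Ifi202b and Ifi205, which fell by 1.25 to 4.55; these are close copies, and their probes may share transcripts. The guanylate-binding genes Gbp5, Gbp7, Gbp3 and Gbp2b of chromosome 3 fell by 2.10 to 4.01, and Parp14, Dtx3l and Parp9 of chromosome 16, which act together in antiviral ADP-ribosylation, by 2.36 to 3.42 beside Hspbap1 (-1.40). The zinc finger genes Zfp980, Zfp600, Zfp991 and Zfp982 on chromosome 4, another family of close copies, fell by 1.26 to 3.12. The run of H1f2, H2bc3, H2ac4 and H1f1 on chromosome 13, histone genes that dividing cells use in S phase, fell by 1.2 to 2.03. Among increases, Zim1, Peg3 and Usp29 on chromosome 7, Irs2 with both collagen genes on chromosome 8, Pef1, Hcrtr1 and Tinagl1 on chromosome 4, and Ctdspl, Mir26a-1 and Vill on chromosome 9 formed runs of 3; Mir26a-1 lies within Ctdspl.

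Most genes of DNA replication and mitosis fell. Of 31 genes of replication and mitosis 26 fell and 1 rose, with a median of -0.70. Ccne1, the cyclin that drives entry into S phase and is constantly high in ES cells, had levels of 11.87, 11.91 and 11.78 in undifferentiated and 9.78, 9.86 and 10 in differentiated cells, a change of -1.98 ± 0.06. Rrm2, which makes deoxynucleotides, fell by 1.88 and the replicative helicase subunits Mcm5 and Mcm3 by 1.80 and 1.73. The mitotic topoisomerase Top2a fell by 0.65, and Mki67, the common marker of cycling cells, had levels of 10.72, 10.72 and 10.56 in undifferentiated and 10.89, 10.94 and 10.74 in differentiated cells and was called higher at 0.19 ± 0.07. That call was lost with arrays centred (0.07), and without undifferentiated replicate 3 (0.14) or differentiated replicate 1 or 2 (0.18 and 0.15). Among 14 G1 regulators 6 rose and 4 fell, near the 27.9% and 27.3% of all genes. Cyclin D1 (Ccnd1) fell by 1.70, and the CDK inhibitors Cdkn2a, Cdkn2b and Cdkn1c rose by 1.06, 1.04 and 0.89.

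DNA methylation genes fell in 8 of 11 cases, among them Uhrf1, which guides maintenance methylation, by 1.67 and the hydroxylase Tet1 by 1.59; Tet3 alone rose, by 1.10. Of 17 Polycomb genes, the repressors of developmental loci, 9 fell and 3 rose, beside 27.3% and 27.9% of all genes. Jarid2, which recruits the complex, had levels of 12.27, 12.27 and 12.27 in undifferentiated and 10.44, 10.44 and 10.41 in differentiated cells, a change of -1.84 ± 0.05, and Phc1 and Eed fell by 1.84 and 1.39. The catalytic subunits went in opposite directions, Ezh2 from 10.77, 10.82 and 10.80 to 10.27, 10.26 and 10.21 and Ezh1 from 9.37, 9.39 and 9.34 to 10.64, 10.60 and 10.49, changes of -0.55 ± 0.05 and 1.21 ± 0.06.

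Most genes of glycolysis and of the response to low oxygen fell. Of 25 genes of hypoxia and glycolysis 21 fell and 3 rose, with a median of -1.08. The median level of the list was 11.64 to 11.72 on the undifferentiated and 10.74 to 10.89 on the differentiated ES 129SV arrays. In the other undifferentiated groups it was 10.29 (adult 129SV), 9.62 (ES Stra8) and 10.13 (adult Stra8). Adm, a peptide hormone induced by low oxygen, had levels of 12.33, 12.47 and 12.40 in undifferentiated and 7.58, 7.37 and 7.53 in differentiated cells, a change of -4.91 ± 0.06 (adjusted p = 1.38e-18), or 30.1-fold. The phosphofructokinases Pfkp and Pfkl, which set glycolytic flux, fell by 2.65 and 2.09, lactate dehydrogenase Ldha by 1.51 and Pdk1, which keeps pyruvate out of mitochondria, by 1.93; the neuronal enolase Eno2 rose by 1.17. Of 20 amino acid stress genes 16 fell and 1 rose (median -0.98). The cystine transporter Slc7a11 had levels of 8.72, 8.89 and 8.91 in undifferentiated and 5.65, 5.46 and 5.85 in differentiated cells, a change of -3.19 ± 0.10. The serine enzyme Shmt2 fell by 2.07, the glutathione-degrading Chac1 by 1.99 and Asns, asparagine synthetase, by 1.37. Respiratory chain genes fell in 19 of 26 cases and rose in none, all by less than 2-fold, with a median of -0.27. Cholesterol synthesis fell in 11 and rose in 5 of 18 cases, and its feedback regulator Insig1 rose by 2.35. Genes often taken as constant also fell in 10 of 11 cases, with a median of -0.40: Tfrc by 1.35, Hprt by 0.95, Ppia by 0.79 and Actb by 0.13. Actb lost its call under quantile normalization (-0.04) and without undifferentiated replicate 1 or 3 (-0.12 and -0.13) or differentiated replicate 1 or 2 (-0.12 and -0.11).

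Imprinted genes, of which only the maternal or the paternal copy is active, rose in 15 of 26 cases and fell in 6, with a median of 0.71 and 11 increases of at least 2-fold. Zim1, a zinc finger gene of the Peg3 domain, had levels of 6.49, 6.26 and 6.52 in undifferentiated and 11.01, 10.95 and 10.76 in differentiated cells, a change of 4.48 ± 0.11 (adjusted p = 2.08e-15), or 22.4-fold. Peg3 itself, a paternally expressed zinc finger gene, rose from 9.40, 9.37 and 9.28 to 13.13, 13.19 and 12.88, a change of 3.72 ± 0.07, and Usp29, whose RefSeq start site lies 164 bases from that of Peg3 on the opposite strand, rose by 1.40. Airn, the noncoding RNA of the Igf2r domain, rose by 3.29, the growth regulator Plagl1 by 2.85 and Igf2, the fetal growth factor, from 10.33, 10.34 and 10.32 to 12.43, 12.41 and 12.37. Dcn, which is also a fibroblast product, fell by 2.36, and the placental genes Phlda2 and Ascl2 by 1.23 and 1.81.

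Germ line genes fell in 15 of 25 cases and rose in 6. Prdm1, which specifies primordial germ cells, fell by 2.30, the piRNA factor Mael by 1.75 and the helicase Ddx4 by 0.54. The receptor Kit, shared by germ cells, blood and endoderm, had levels of 9.39, 9.42 and 9.21 in undifferentiated and 12.27, 12.30 and 12.18 in differentiated cells, a change of 2.91 ± 0.06. Dazl, an RNA-binding protein of germ cells, rose by 0.47. Of the sex-linked genes, Xist, the RNA that silences an X chromosome, had levels of 8.63, 8.78 and 8.70 in undifferentiated and 5.30, 5.80 and 5.24 in differentiated cells, a change of -3.26 ± 0.13 (adjusted p = 1.27e-12). The Y-linked genes Kdm5d and Uty fell by 0.93 and 0.70, whereas Eif2s3y changed by -0.06 ± 0.11 (adjusted p = 0.699). Zfy1 and Zfy2, also on the Y chromosome, rose by 0.55 and 0.62.

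Immediate-early genes, which respond within minutes to growth factors, stress or handling, rose in 6 of 19 cases and fell in 8, beside 27.9% and 27.3% of all genes. Fos and Fosb rose from 7.92, 8.09 and 7.88 to 9.92, 9.84 and 9.79 and from 7.98, 8.01 and 8.07 to 9.82, 9.68 and 9.76, and Egr1 by 0.83. Fosl1, an AP-1 subunit of growing mesenchyme, fell by 2.48 and Myc by 1.47, and Jun had a change of -0.18 ± 0.08 (adjusted p = 0.06). Jun was called with arrays centred (-0.30), and without differentiated replicate 1 or 2 (-0.24 and -0.22), but stood at -0.06 without replicate 3. Adhesion and mesenchymal transition genes fell in 11 of 15 cases and rose in 2. The cadherins Cdh11 and Cdh2 fell by 3.47 and 1.17 and the factor Snai2 by 1.31; Zeb1 rose by 0.66, and Snai1 had levels of 9.99, 9.98 and 10.05 in undifferentiated and 10.14, 9.95 and 10.30 in differentiated cells and a change of 0.13 ± 0.08 (adjusted p = 0.174).

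Hox genes give cells their position along the body axis, and those at the 3′ end of each cluster, with low numbers, come on first and respond to retinoic acid. Of 37 measured Hox genes 21 rose, 6 fell and 10 were not called, with a median of 0.35, and only 3 rose at least 2-fold. Those were Hoxa5, with levels of 6.83, 6.82 and 6.83 in undifferentiated and 8.70, 8.81 and 8.37 in differentiated cells, Hoxa3, with levels of 6.16, 6.27 and 6.23 in undifferentiated and 7.46, 7.67 and 7.4 in differentiated cells, and Hoxb4, with levels of 6.79, 6.60 and 6.73 in undifferentiated and 7.75, 7.78 and 7.65 in differentiated cells. Their changes were 1.80 ± 0.11, 1.29 ± 0.08 and 1.02 ± 0.08. Hoxb2 and Hoxc4 rose by 0.93 and 0.97. Decreases came from Hoxa11, Hoxb9, Hoxc6, Hoxd10, Hoxd11 and Hoxd13, by 0.22 to 0.77. Other genes toward the 5′ ends of the clusters rose, Hoxc9 by 0.69, Hoxc13 by 0.49, Hoxa13 by 0.42 and Hoxd9 by 0.37. The smallest of the decreases, Hoxd13, lost its call without undifferentiated replicate 1 or 2 (-0.22 and -0.15) or differentiated replicate 1 or 3 (-0.17 and -0.23). All Hox signals on these arrays were between 5 and 9 on the log2 scale.

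Genes for microRNAs were read as well. A microRNA is cut from a longer transcript to a short strand that recognises its targets through the seed, bases 2 to 8. The array probes read the precursor or host transcript and not the mature strand. RefSeq on GRCm38.p6 gave a mature sequence for 271 of 297 measured genes. A mature strand of each of the microRNA genes given below are shown 5′ to 3′ with the seed in capitals, to set out which share one. Let-7a, let-7c, let-7e and let-7f share a seed, and so do miR-200b and miR-200c.
let-7a-5p: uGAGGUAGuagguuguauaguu
let-7c-5p: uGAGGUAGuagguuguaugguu
let-7e-5p: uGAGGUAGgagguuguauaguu
let-7f-5p: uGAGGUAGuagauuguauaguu
miR-10b-5p: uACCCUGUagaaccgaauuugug
miR-495-3p: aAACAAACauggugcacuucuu
miR-329-3p: aACACACCcagcuaaccuuuuu
miR-134-5p: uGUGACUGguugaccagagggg
miR-127-3p: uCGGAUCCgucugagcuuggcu
miR-200b-3p: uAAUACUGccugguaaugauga
miR-200c-3p: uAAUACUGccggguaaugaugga
miR-363-3p: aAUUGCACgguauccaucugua
Of 297 measured microRNA genes 141 rose and 16 fell (beside 27.9% and 27.3% of all genes), with a median of 0.28. Their median level was 6.17, in the dim range where replicate 3 of the differentiated cells sat higher (a median of 0.24 above replicates 1 and 2 over 8810 dim genes, against -0.02 over 11128 bright ones), and without it 138 rose and 21 fell.

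The let-7 family, which ES cells hold back through Lin28 and which rises as cells differentiate, had 7 increases and 1 decrease in 10 genes, with a median of 0.54. Over all 297 microRNA genes there were 141 increases and 16 decreases, with a median of 0.28. Mirlet7c-1 was at 4.15, 4.08 and 4.01 in undifferentiated and 5.58, 5.39 and 5.34 in differentiated cells, a change of 1.36 ± 0.17. Mirlet7e was at 7.35, 7.45 and 7.32 in undifferentiated and 8.46, 8.26 and 8.26 in differentiated cells, a change of 0.96 ± 0.07. Mirlet7f-1 was at 5.58, 5.73 and 5.43 in undifferentiated and 6.82, 7.09 and 6.26 in differentiated cells, a change of 1.14 ± 0.19. Mirlet7a-2, from another locus, was the decrease, at -0.67. Elsewhere, the Hox cluster gene Mir10b was at 3.11, 3.80 and 3.46 in undifferentiated and 5.39, 5.39 and 4.69 in differentiated cells, a change of 1.70 ± 0.21, and Mir200b and Mir200c, of a family that maintains epithelium, rose by 0.95 and 0.43. Mir363, from a cluster on the X chromosome, fell from 5.76, 5.64 and 5.84 to 4.02, 4.23 and 3.89. The microRNA genes named were chosen after their values were seen.

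**Figure D3:**
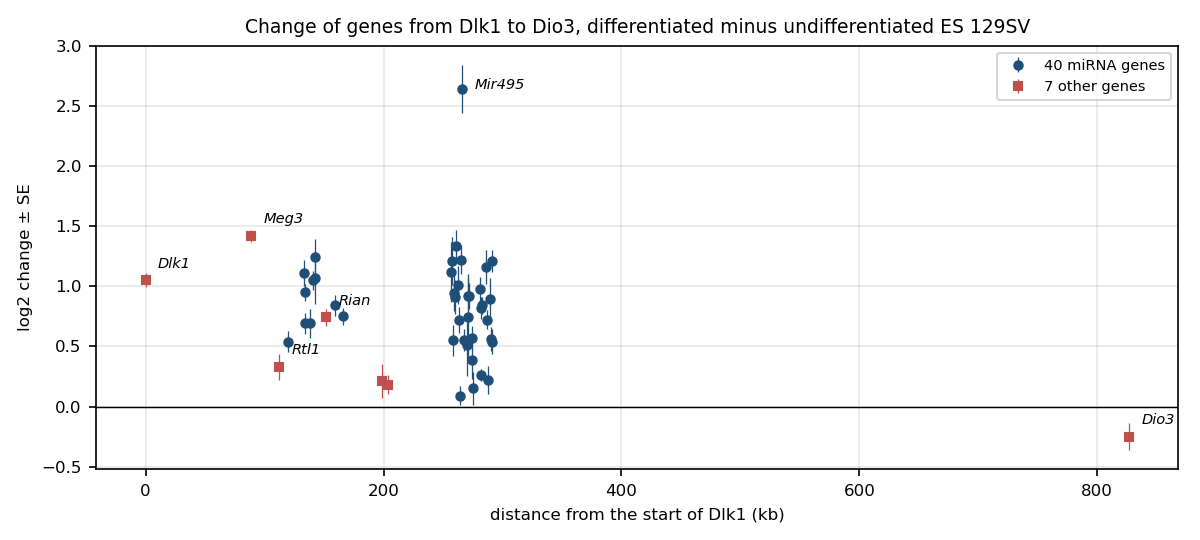
Log2 change ± SE, differentiated minus undifferentiated (vertical axis), against distance from the start of Dlk1 in kb (horizontal axis), for 40 microRNA genes (blue) and 7 other genes (red) from Dlk1 to Dio3. Mir495 (2.64) lies above the rest, and Dio3 at the far end lies below 0.

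The imprinted region from Dlk1 to Dio3 on chromosome 12, where noncoding RNAs and microRNAs come from the maternal copy, held mostly increases. Of its 40 measured microRNA genes 35 rose and none fell, 12 of them at least 2-fold, and the median was 0.84. The 257 microRNA genes elsewhere had 106 increases and 16 decreases. Mir495 had levels of 4.52, 4.75 and 4.92 in undifferentiated and 7.56, 7.80 and 6.76 in differentiated cells, a change of 2.64 ± 0.20. Mir127, which is antisense to Rtl1, changed by 1.05 ± 0.08, Mir329 by 1.33 ± 0.14 and Mir134 by 0.82 ± 0.09. The long noncoding RNA Meg3, from which the maternal transcripts begin, had levels of 11.39, 11.33 and 11.41 in undifferentiated and 12.87, 12.77 and 12.77 in differentiated cells, a change of 1.42 ± 0.05, and Rian changed by 0.74 ± 0.07. The protein-coding genes of the paternal copy were Dlk1, a Notch relative, with 1.05 ± 0.06, Rtl1 with 0.33 ± 0.11 and Dio3, which inactivates thyroid hormone, with -0.25 ± 0.11 (adjusted p = 0.0598). Of the 7 genes here that are not microRNA genes 4 rose and none fell (median 0.33); besides Dio3, DQ267101 at 0.21 and DQ267102 at 0.18 were not called. Without replicate 3, 39 of the 40 microRNA genes were called higher, and of the 7 others 4 were called higher and 1 lower. These genes share long transcripts and are not independent of each other.

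In mammals the dinucleotide CpG is depleted except at islands, which many housekeeping and developmental promoters carry, and the ratio of observed to expected CpG measures it. The median ratio over 15563 genes with a promoter window was 0.58, and it was 0.63 for genes that rose and 0.61 for genes that fell at least 2-fold. Among genes that changed at least 16-fold, it was 0.33 over 8 increases and 0.26 over 40 decreases.

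The response of adult 129SV cells, which shares no array with that of ES cells, allowed a test of where the response of ES cells differs. The difference of both responses (ES minus adult) was called in 9110 genes (45.7%), 4281 positive and 4829 negative, and in 265 and 1083 it was at least 2-fold. The list counts of differences below are to be read beside these counts out of 19938 genes. Among genes called in both responses 7239 moved the same way and 1214 moved in opposite ways. Levels on all 18 arrays, in the plot over the 6 groups, give the starting and end levels behind such differences.

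**Figure D4:**
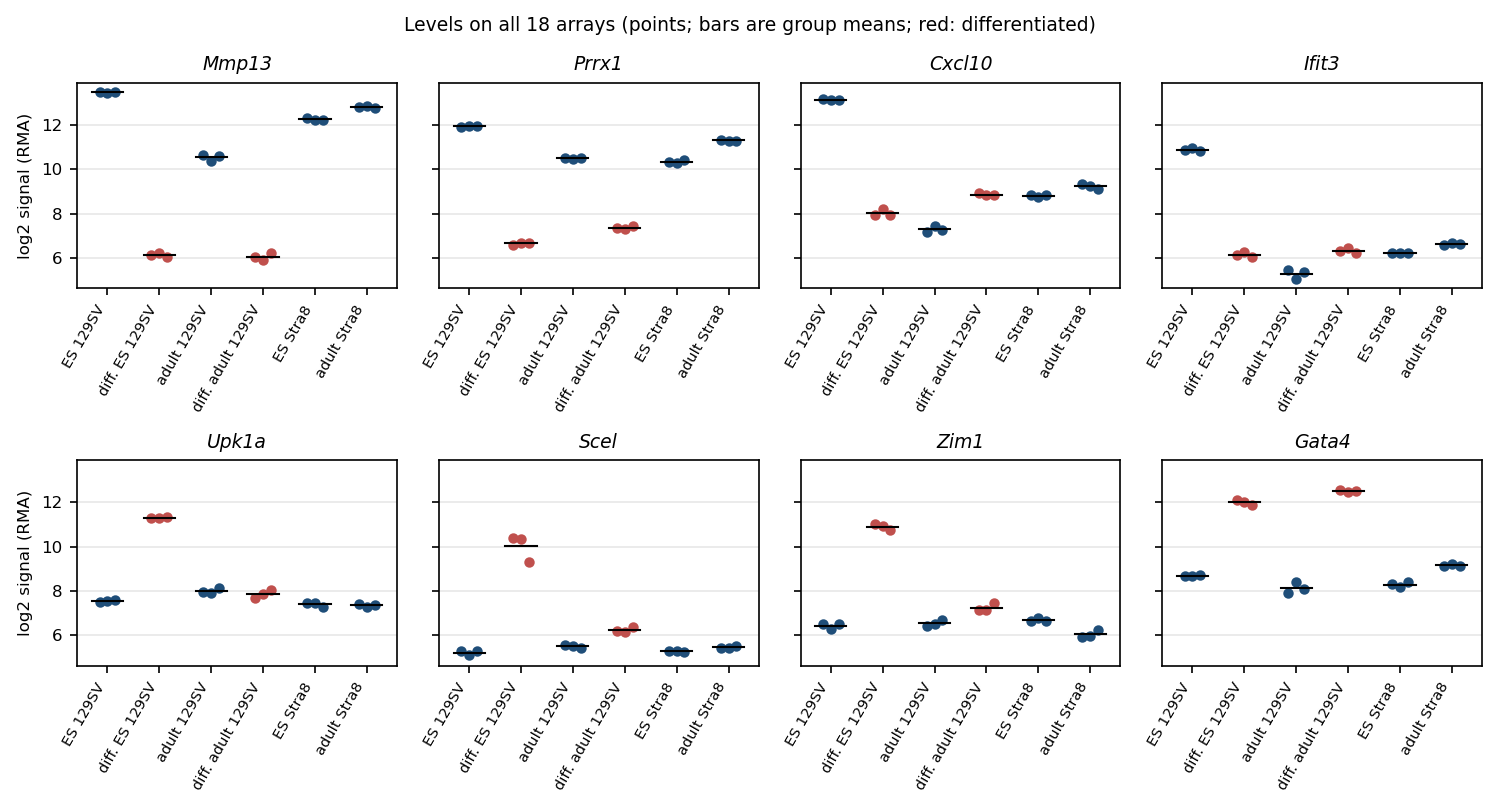
Log2 RMA signal (vertical axis) on each of 18 arrays for 8 genes, by group, with differentiated cells in red and group means as bars. Cxcl10 and Ifit3 are highest in undifferentiated ES 129SV cells (means of 13.14 and 10.89), Upk1a, Scel and Zim1 in differentiated ES 129SV cells (11.31, 10.03 and 10.91), and Gata4 in both differentiated groups (means of 12 and 12.53).

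The largest negative difference was that of Cxcl10. Cxcl10 fell in ES cells (-5.10) and rose in adult cells (1.56), a difference of -6.66 ± 0.12 (adjusted p = 2.16e-15). For Ifit3 the changes were -4.75 and 1.05, a difference of -5.80 ± 0.13, and for Irf7 -4.68 and 0.37, a difference of -5.04 ± 0.13. The GTPase Iigp1 and the interferon-induced genes Ifit3b, Trim30a and Cxcl11 differed by -5.02 ± 0.21, -4.95 ± 0.17, -4.92 ± 0.23 and -4.36 ± 0.20. Over the 26 interferon genes the median change was -2.83 in ES and 0.07 in adult cells, and 25 had a negative difference. The starting levels differed between the groups: the median level of the list was 10.34 to 10.42 on the undifferentiated ES 129SV arrays, and 7.42 in adult 129SV, 7.29 in ES Stra8 and 7.82 in adult Stra8 cells before differentiation, beside 7.47 to 7.54 in differentiated ES 129SV cells. Hypoxia and glycolysis genes had a negative difference in 23 of 25 cases, with medians of -1.08 in ES and -0.02 in adult cells. Adm differed by -4.67 ± 0.09, with a change of -0.25 in adult cells. As given above, that list started higher in undifferentiated ES 129SV cells than in the other undifferentiated groups. Fibroblast genes had a negative difference in 25 of 29 cases, with medians of -2.07 in ES and -0.73 in adult cells; Prrx1 fell in both, with changes of -5.29 and -3.13.

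The largest positive differences came from genes of several lists and of none. Scel changed by 4.82 in ES and 0.74 in adult cells, a difference of 4.08 ± 0.27 (adjusted p = 3.87e-09). Upk1a changed by 3.77 and -0.14, a difference of 3.92 ± 0.11, and Zim1 by 4.48 and 0.72, a difference of 3.77 ± 0.15. The others of the 8 largest were Mab21l4 (3.36 ± 0.31), the uroplakin-like gene Upk3bl (3.33 ± 0.10), the raft protein Mal (3.02 ± 0.14), the calcium-binding S100a14 (2.81 ± 0.21) and the surface antigen Psca (2.78 ± 0.17). In the surface epithelium list 21 of 29 genes had a positive difference and 2 a negative one, with medians of 0.52 in ES and -0.23 in adult cells. Cdh1, which did not pass in ES cells (0.02), had a change of -1.70 in adult cells, a difference of 1.72 ± 0.07 (adjusted p = 9.97e-12). Elf5 and Wnt7b changed by 1.61 and 1.72 in ES and by -0.09 and -0.15 in adult cells, differences of 1.70 ± 0.16 and 1.87 ± 0.09.

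Endoderm transcription factors had 6 positive and 7 negative differences of 20, with a median of 0.10. Over all 19938 genes 4281 differences were positive and 4829 negative, with a median of 0.08. Gata4 and Gata6 changed by 3.32 and 3.12 in ES and by 4.40 and 4.28 in adult cells, differences of -1.08 ± 0.14 and -1.16 ± 0.15. In the parietal endoderm list 16 of 17 genes had a negative difference and none a positive one. The median changes were 1.11 in ES and 2.48 in adult cells, and Srgn changed by 2.71 and 5.19. The starting levels differed: the list median was 10.49 to 10.63 on the undifferentiated ES 129SV arrays and 9.44 in undifferentiated adult 129SV cells. After differentiation it was 12.28 to 12.37 on the ES arrays and 12.29 in adult cells. Yolk sac genes had 17 positive and 6 negative differences of 28. Cubn was among the negative ones, at -2.68 ± 0.10, while Afp, Ttr and Fgb were positive, at 1.26 ± 0.17, 1.28 ± 0.16 and 1.69 ± 0.15. For Aqp8, Gkn2 and Clu, among the largest increases in ES cells, the differences were -0.19 ± 0.16 (adjusted p = 0.348), 0.19 ± 0.13 (adjusted p = 0.225) and 0.20 ± 0.09 (adjusted p = 0.0986), which did not pass.

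**Figure D5:**
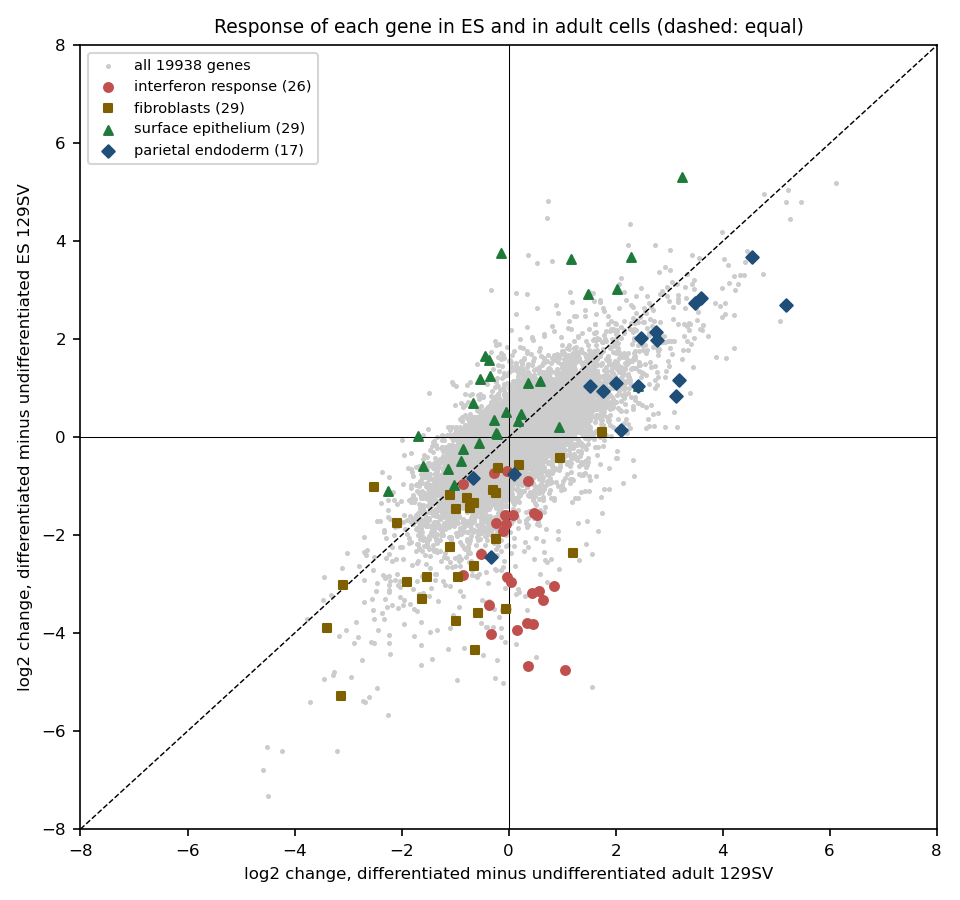
Log2 change in ES 129SV cells (vertical axis) against log2 change in adult 129SV cells (horizontal axis) for all 19938 genes (grey), with members of 4 lists coloured and the line of equal change dashed. Interferon genes lie below 0 on the ES axis and on both sides of 0 on the adult axis (median 0.07), surface epithelium lies mostly above the line, and parietal endoderm below it.

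Replicate 3 of the differentiated cells differed from replicates 1 and 2 in few genes by much: 20 lay at least 2-fold above their mean and 25 at least 2-fold below. The 6 furthest above were Olfr1095, Olfr1085, Olfr1051, Cyp2c39, AI506816 and Vmn2r19, with Olfr1085 at 5, 4.86 and 6.22. The 6 furthest below were Zfp931, Gm10452, Mir376a, Zfp617, Pcgf1 and Zfp640. Zfp931, a zinc finger gene, was at 5.99, 6.30 and 4.29, and Zfp640 at 9.11, 9.45 and 7.91 from 10.83, 10.85 and 10.84 in undifferentiated cells. Among the changes described above, that array lay about 1 log2 unit under the others in Scel, in Mab21l4 (10.75, 10.67 and 9.54) and in Mir495. In each of them it stayed clear of every undifferentiated array. By smaller margins it was the lowest of its group in other genes as well, among them Pou5f1 and Gata4.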

How the data were processed

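Gene expression was measured on 18 arrays, 3 for each of 6 groups, and groups were taken from the titles. The submitters' processing notes name RMA and Affymetrix Expression Console (version not given in the sources used here). The value table deposited by the authors holds its output on the log2 scale, and no scanner file was used here. RMA corrects the background, normalizes arrays to a shared distribution and summarizes probes, which dampens changes of dim genes. Array medians were 7.22 to 7.23 in undifferentiated and 7.35 in differentiated ES 129SV cells. Depth has no meaning for arrays, so the number of arrays limits the precision. Of 35556 probe sets, 21789 carry 1 gene symbol, 1621 carry several and 12146 none. For 999 of 19938 genes with more than 1 probe set the brightest was used, and for 19 of them probe sets were called in opposite directions. All 6 groups were fitted together with limma 3.58.1 in R 4.3.3 (lmFit, contrasts, eBayes; 12 residual degrees of freedom). P-values were adjusted by Benjamini-Hochberg over all genes. They measure the spread between arrays labelled as biological replicates, whose cultures are not described. The difference of responses was tested in the same fit as an interaction. The procedure was tested on simulated data.

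The genes named are the 12 largest increases and decreases without overlap between arrays, up to 4 called genes each way per list with the fixed anchors of that list, the 8 largest differences from the adult response each way, up to 6 of the longest runs each way and the genes furthest off in replicate 3. Dppa3, Klf5, Lefty1, Spry1, Hoxa13 and the genes of microRNAs and of the Dlk1 region lie outside that rule and were named after their values were seen. The 45 lists (787 of 854 genes measured) and the comparison itself were chosen with earlier results of these data known. Replicate numbers were not used to pair samples. Deviations of same-numbered ES arrays from their group means correlated at 0.09, -0.02 and 0.06 over all genes. With 3 arrays a group these values cannot settle whether same-numbered arrays share a culture or batch, which the labels do not state.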

Additional observations from a re-analysis of the deposited data

Results flagged for a closer look

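The responses of ES and adult 129SV cells differed, by the interaction test in limma, in 9110 genes. The 8 largest positive differences (ES minus adult, log2) were 4.08 for Scel, 3.92 for Upk1a, 3.77 for Zim1, 3.36 for Mab21l4, 3.33 for Upk3bl, 3.02 for Mal, 2.81 for S100a14 and 2.78 for Psca. The 8 largest negative differences were -6.66 for Cxcl10, -5.80 for Ifit3, -5.04 for Irf7, -5.02 for Iigp1, -4.95 for Ifit3b, -4.92 for Trim30a, -4.67 for Adm and -4.36 for Cxcl11. Among the other anchor genes of the lists (those named whether called or not) whose ES and adult responses were called in opposite directions, the difference was -2.59 for B2m, -1.38 for the cadherin Cdh2, -0.81 for Ezh2, -3.88 for Ifit1, 0.53 for Nkx2-5 and -0.86 for Vim. The ES call of Nkx2-5 was lost with centred arrays, so its direction is uncertain.

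Signal was also present in probe sets that no gene test used, because they carry several symbols or none. Of 13767 such probe sets 4826 were called in the same fit, 962 of them at least 2-fold higher and 354 at least 2-fold lower in differentiated ES 129SV cells. They were not analysed further.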

How the results depend on the processing

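No count of called genes moved by over 1.5 times in any of the 15 alternatives tried for the ES response. It ranged from 10253 to 10976 with 1 ES array left out. The highest count was 12928, with array weights (whose iterations did not fully converge). The lowest was 9636, with dim genes left out. That fit tested only 12411 genes, so the share called was larger there than the 55.2% of the main fit. The split into higher and lower moved with the scale: 4045 and 6847 with arrays centred, 4839 and 6238 under quantile normalization. Of 375 named genes, 347 kept their direction and side of the threshold in all of these that tested them. In at least 1 alternative 17 lost their call, and 11 gained a call. Named genes that were dim were absent from the fit without dim genes. The calls lost were of changes up to 0.38 in size, other than that of Gm10452 (1.32, and 0.88 without differentiated replicate 2). Nlrc5 turned from 0.21 to -0.81 when its probe sets were averaged. In the fit with the replicate number as a block 11045 genes were called. Same-numbered ES arrays showed little shared deviation, which cannot settle whether they were paired. With 3 arrays a group, small changes of dim genes are the least certain.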
